A study of Mus musculus with 6 samples.

Results

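The CCR2 axis comprises 4 chemokine genes, Ccl2, Ccl7, Ccl8 and Ccl12, and the receptor gene Ccr2. All 5 were found by symbol among the 32285 genes of the mouse count matrix, and they are described across marker-gated cell classes, across clusters of carcinoma cells, and on myeloid cells, where ligand and receptor meet. The data came from MOC-2 tumors, a mouse head and neck squamous carcinoma line grown under the skin of male mice whose age is not given in the sources used here. The labels list 3 vehicle and 3 treated tumors, taken 24 h after an injection into the tumor. The treatment protocol names Copper(II) diethyldithiocarbamate, 2-C1-IB-MECA, 2'3'-c-di-AM(PS)2, 5’ppp-dsRNA/Lyovec, R848, galunisertib, epcadostat, Nw-Hydroxy-nor-L-arginine, L-NMMA, clodronate and 4-1BB ligand, but the labels do not say which of them the treated tumors received. Live cells were sorted, tagged by tumor and pooled for droplet sequencing of transcript 3′ ends, and since the labels link neither tags nor barcode suffixes to single tumors, vehicle and treated tumors were not compared.

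CCR2 is a chemokine receptor on inflammatory monocytes. CCL2 is its best-known ligand, and the CCL2 gradient draws Ly6C-high monocytes from the bone marrow into inflamed tissue and tumors, where they lose Ly6C and become macrophages. CCL7 and the mouse chemokine CCL12 also bind CCR2. Mouse CCL8 is known as a ligand of CCR8, and its binding to CCR2 was not tested here. Ccl8 is counted among the ligand genes below.

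The 4 ligand genes lie together on the plus strand of chromosome 11 (GRCm38, GENCODE M21 annotation), in the order Ccl2, Ccl7, Ccl12, Ccl8, over 81.2 kb from the start of Ccl2 to the end of Ccl8. Ccl2 (ENSMUSG00000035385) lies at chr11:82035571-82037453, Ccl7 (ENSMUSG00000035373) at chr11:82045712-82047525, Ccl12 (ENSMUSG00000035352) at chr11:82101845-82103400 and Ccl8 (ENSMUSG00000009185) at chr11:82115185-82116799, and each has 3 exons. Ccr2 (ENSMUSG00000049103) lies apart from them at chr9:124101950-124113557. CC chemokines are named for a pair of adjacent cysteines, so the coding sequence around those codons is shown to let the 4 ligands be compared. Each line gives 54 bases of coding sequence in reading frame, joined across the intron that separates the first and second exons, with the cysteine codon pair of exon 2 in capitals.
Ccl2: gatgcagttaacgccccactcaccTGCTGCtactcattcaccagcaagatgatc
Ccl7: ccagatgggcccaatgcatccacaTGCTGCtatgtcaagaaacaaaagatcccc
Ccl12: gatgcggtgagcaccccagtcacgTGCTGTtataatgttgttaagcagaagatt
Ccl8: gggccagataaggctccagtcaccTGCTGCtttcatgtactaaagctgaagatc
Over these 54 bases, 35 were identical between Ccl12 and Ccl8, 33 between Ccl2 and Ccl12, and 20 between Ccl7 and Ccl8. Bases were compared position by position without gaps, so shifts between the windows were not allowed for. The longest run of bases that any 2 of the 5 transcripts shared was 23, between Ccl2 and Ccl7. Ccl12 and Ccl8 are neighbours 11.8 kb apart, but Ccl12 was found in monocytes or macrophages and Ccl8 in fibroblasts and carcinoma cells as well. The 250 bases before their annotated starts are therefore shown (RefSeq, GRCm38.p6, plus strand), with matches to TATAAA in capitals.
Ccl12: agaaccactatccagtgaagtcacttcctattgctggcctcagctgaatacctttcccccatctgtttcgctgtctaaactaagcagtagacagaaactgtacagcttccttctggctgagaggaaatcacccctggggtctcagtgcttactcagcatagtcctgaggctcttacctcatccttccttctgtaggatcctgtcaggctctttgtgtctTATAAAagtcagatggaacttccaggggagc
Ccl8: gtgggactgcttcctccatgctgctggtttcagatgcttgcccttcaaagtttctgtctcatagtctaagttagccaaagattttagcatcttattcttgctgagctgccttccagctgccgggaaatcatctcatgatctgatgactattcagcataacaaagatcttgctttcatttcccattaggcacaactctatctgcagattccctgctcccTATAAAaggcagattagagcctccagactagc
The Ccl12 window is chr11:82101595-82101844 and the Ccl8 window chr11:82114935-82115184. TATAAA stood 31 to 26 bases before the start in Ccl12 and 32 to 27 bases before it in Ccl8, and 12.4% of 32851 promoters of that length held it on either strand. A pair of GAAA with any 2 bases between them (the core of the interferon-stimulated response element), TTCNNNGAA and TGANTCA, also searched on both strands, had 0 matches in both windows and occurred in 2.98%, 7.02% and 6.75% of promoters. No promoter of Ccl2 or Ccl7 was in the sequence table used here.

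The matrix held 14818 cells in 6 barcode sets of 901 to 4077 cells, defined by the barcode suffix, and 13768 cells passed the filter, with a median of 8379.5 transcript molecules (unique molecular identifiers, UMIs) per cell. No cell barcode occurred under more than 1 suffix, and each set had its own main multiplexing tag. The barcode sets are unmapped samples, so their values are given singly or as a range with no test. Gating on marker genes gave 7596 carcinoma cells, which carried Xist and no Y-linked counts and were so separated from male host cells, and 1657 monocytes or macrophages. The latter were divided into 1110 C1q-positive and 465 C1q-negative cells and 82 cells with a single C1q UMI. Compared with C1q-positive cells, C1q-negative cells had higher levels of the monocyte genes Ly6c2 (2020 against 784 CPM, UMIs scaled to 1000000 gene UMIs per class), Plac8 (5861 against 1577 CPM) and Ms4a4c (1331 against 656 CPM), none of which was used in the gate. The other classes held 13 to 343 cells, and all gate markers of each class, which the gates select for, were at least 2-fold higher there except the 3 C1q genes, which are at 0 in C1q-negative cells by definition. A further 2475 cells passed no gate, and 732 that mixed gates or host and carcinoma signals were set apart as possible doublets. Intervals are 95% and cover counting error only.

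Ccl2 was the most abundant of the ligands in the sequenced cells, and most of its UMIs lay in carcinoma cells. Carcinoma cells held 233393 Ccl2 UMIs, 78.6% of those in filtered cells, against 70.5% of all gene UMIs. The cells that passed no gate held 10.8% of Ccl2 UMIs and 15.4% of all gene UMIs. The level in carcinoma cells was 2354 CPM (2344 to 2363), which was 1.90-fold that of all other classed cells. As a share of all gene UMIs the level was higher still in mast cells or basophils, at 3303 CPM (3031 to 3592, 64 cells). C1q-negative cells were also above carcinoma cells, at 2975 CPM (2872 to 3080). The 82 cells with a single C1q UMI were at 3046 CPM (2794 to 3315), and the intervals of these host classes overlapped. Without barcode set 1, mast cells or basophils were at 2645 CPM and C1q-negative cells at 3506 CPM, which turned their order. Without barcode set 4, C1q-negative cells were at 2415 CPM and carcinoma cells at 2470 CPM, which turned their order. A carcinoma cell held 30.7 Ccl2 UMIs on average, a mast cell or basophil 8.52 and a C1q-negative cell 6.76, among 13055, 2578 and 2274 gene UMIs per cell. Fibroblasts followed at 2074 CPM (2012 to 2137), C1q-positive cells at 1321 CPM (1280 to 1362), and pericytes or smooth muscle cells at 1179 CPM (1058 to 1310). Endothelial cells were at 251 CPM, NK cells at 133 CPM, osteoclast-like cells at 98.1 CPM, T cells at 81.3 CPM and dendritic cells at 63.4 CPM, and the 13 B or plasma cells held 1 Ccl2 UMI. Single cells carried part of these low levels. In NK cells 82 of 130 Ccl2 UMIs lay in 1 cell, and the level was 59.0 CPM without barcode set 2, while in osteoclast-like cells 58 of 134 lay in 1 cell, and it was 59.2 CPM without set 5. To compare shares of cells, cells with at least 2000 UMIs were thinned to that number, which left out 233 of 465 C1q-negative, 478 of 1110 C1q-positive, 141 of 7596 carcinoma and 168 of 343 T cells as too shallow. Among the cells that remained, 65.1% of C1q-negative cells (58.6 to 71.2), 55.1% of carcinoma cells (54.0 to 56.3) and 47.8% of C1q-positive cells (43.8 to 51.8) had a Ccl2 UMI. T cells, used as a class low in the gene, had one in 11.4% (7.12 to 17.1), and the shares of 10.3% in NK, 8.84% in osteoclast-like and 12.3% in dendritic cells were read as the same background. Median depths before thinning were 2759 UMIs in C1q-negative, 11553 in carcinoma, 3106 in C1q-positive and 3103 in T cells, and the unthinned shares, over all cells of each class, were 62.4%, 74.1%, 51.1% and 20.4%. Neutrophils, at 1457 CPM, rested on 202 UMIs of which 121 lay in 1 of 53 cells, and the level was 583 CPM without barcode set 2.

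**Figure D1:**
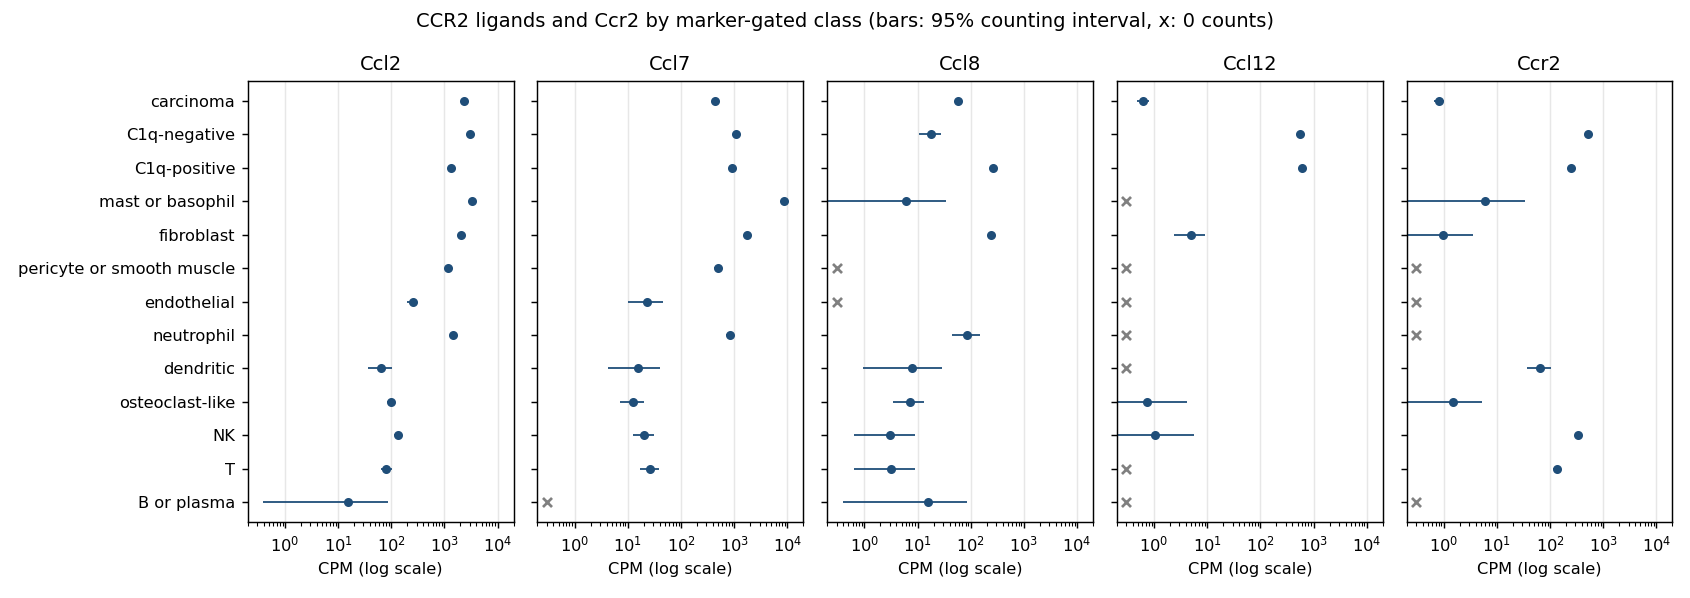
Level of each ligand and of Ccr2 in 13 marker-gated classes, in CPM on a log axis, with 95% counting intervals and a cross where the class holds 0 counts. Ccl2 and Ccl7 were both above 400 CPM in C1q-negative, C1q-positive and carcinoma cells, mast cells or basophils, and fibroblasts. They were also above it in neutrophils and in pericytes or smooth muscle cells. Ccl12 was above it in C1q-negative and C1q-positive cells alone, and Ccr2 was highest in C1q-negative cells.

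Ccl7, a ligand that helps mobilise monocytes from the marrow, had its highest level in a rare population. Mast cells or basophils held 8745 CPM (8299 to 9208), 18.5-fold the level of the other classed cells and 4.96 times that of fibroblasts. After thinning, 37 of 40 of these cells (92.5%, 79.6 to 98.4) had a Ccl7 UMI. The levels in barcode sets 1 to 6 were 18158, 7034, 5471, 5109, 15266 and 11767 CPM, over 11, 32, 3, 11, 3 and 4 cells. Every set was above the pooled level of every other class, although 3 of the 6 sets had under 5 such cells. Because they were few, these cells held 2.17% of the Ccl7 UMIs. Carcinoma cells, at 443 CPM (439 to 447), held 66.2%. Fibroblasts were second in level at 1762 CPM (1705 to 1821), and the 82 cells with a single C1q UMI were next at 1373 CPM (1205 to 1557). C1q-negative cells were at 1071 CPM (1009 to 1135) and C1q-positive cells at 901 CPM (868 to 936), but the former were higher in 3 of 6 sets. In fibroblasts the 6 sets gave 1530, 1596, 1242, 2413, 2100 and 1625 CPM, above the carcinoma and both myeloid classes in 6 of 6 sets. Ccl7 was at 26.0 CPM in T cells and 20.4 CPM in NK cells.

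The balance of Ccl2 and Ccl7 differed between classes. Carcinoma cells held 5.31 Ccl2 UMIs for each Ccl7 UMI, C1q-negative cells 2.78, C1q-positive cells 1.47, fibroblasts 1.18 and mast cells or basophils 0.378. In T cells the ratio was 3.12, and in NK cells it was 6.50 in all and 2.56 without barcode set 2, whose 1 cell held most of their Ccl2. Ccl2 outnumbered Ccl7 in each of the 12 other classes with any Ccl7 UMI, and Ccl7 outnumbered Ccl2 in mast cells or basophils. The 2 genes were often seen in the same cell. In thinned carcinoma cells Ccl7 was found in 44.4% of cells with Ccl2 (42.9 to 45.9) and in 8.55% of cells without it (7.62 to 9.55). In fibroblasts these shares were 81.1% (74.3 to 86.8) and 50.6% (39.8 to 61.3). The carcinoma clusters described below and the barcode sets differed in the levels of both genes. Their part in these shares was not tested.

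Ccl8 was lower in level and had a narrower distribution. C1q-positive cells held 264 CPM (246 to 283), 4.50-fold the other classed cells, and fibroblasts 242 CPM (221 to 264), 3.96-fold the others, with overlapping intervals. Carcinoma cells were at 57.8 CPM (56.3 to 59.3) but, being many, held 64.5% of the Ccl8 UMIs. C1q-negative cells were at 18.0 CPM (10.8 to 28.1), on 19 UMIs. In barcode sets 1 to 6, C1q-positive cells held 93.9, 391, 516, 248, 332 and 409 CPM and C1q-negative cells 0, 34.5, 11.2, 45.1, 0 and 7.07 CPM. The 2 ranges did not overlap, and C1q-positive cells were higher in 6 of 6 sets. Ccl8 was concentrated in few cells: the tenth of C1q-positive cells with most Ccl8 held 94.3% of its UMIs there, against 71.1% for Ccl2. In fibroblasts the 6 sets ran from 68.3 CPM in set 1 to 527 CPM in set 3. Set 1 was the lowest set in both classes, and set 3 the highest in both.

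Among the gated classes, Ccl12 was almost confined to monocytes or macrophages. C1q-positive cells held 602 CPM (574 to 630), 78.4-fold the other classed cells, and C1q-negative cells 566 CPM (521 to 613), 30.0-fold the others, with overlapping intervals. The 82 cells with a single C1q UMI were at 851 CPM (720 to 998), and at 557 CPM without barcode set 4. Carcinoma cells held 61 UMIs, or 0.615 CPM, and T cells 0 UMIs, which allows up to 3.13 CPM. Dendritic cells, neutrophils, mast cells or basophils, endothelial cells and pericytes also held 0 Ccl12 UMIs. Between barcode sets Ccl12 varied more than Ccl2, Ccl7 and Ccr2 in C1q-negative cells, with 146, 112, 56.0, 941, 582 and 1103 CPM in sets 1 to 6. In C1q-positive cells the same sets gave 216, 319, 164, 928, 466 and 1160 CPM. Sets 4, 5 and 6 were above sets 1, 2 and 3 in both classes, a split noticed after the values were seen. No source ties the sets to vehicle or treated tumors. The highest set was 19.7 times the lowest in C1q-negative and 7.10 times in C1q-positive cells. Isg15, an interferon-induced gene, was at 147, 223, 448, 508, 1091 and 882 CPM in C1q-positive cells of these sets, and its part in the Ccl12 levels was not tested.

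Ccl2 in myeloid cells varied between the same sets. C1q-negative cells held 865, 1724, 683, 4469, 3452 and 4871 CPM in sets 1 to 6, and C1q-positive cells 339, 1378, 1093, 1959, 1227 and 1848 CPM. C1q-negative cells were higher in 5 of 6 sets, with set 3 the exception. Carcinoma cells held 2065, 2226, 725, 2070, 2973 and 3677 CPM, so that C1q-negative cells were above carcinoma cells in 3 of 6 sets. Set 3 was low in carcinoma Ccl2, and 75.3% of its carcinoma cells belonged to the epithelial cluster described below. Without that cluster the 6 sets ran from 1677 CPM in set 3 to 3868 CPM.

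**Figure D2:**
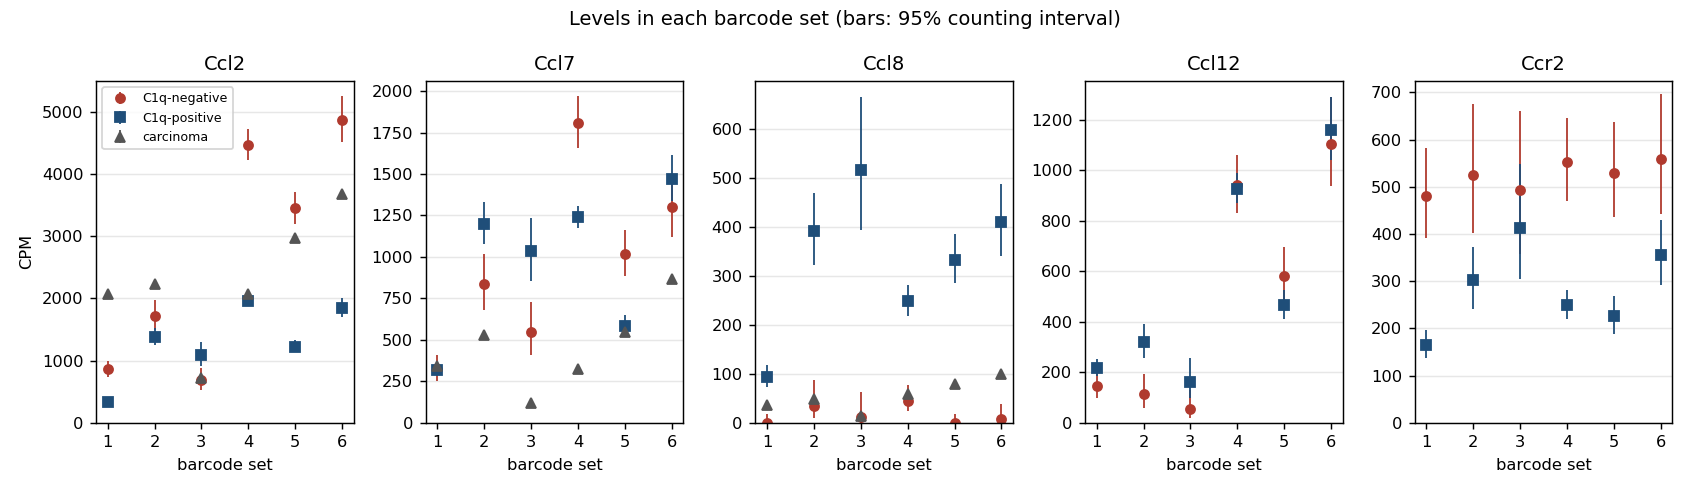
Level in CPM of each member in the 6 barcode sets, for C1q-negative cells (circles), C1q-positive cells (squares) and, for Ccl2, Ccl7 and Ccl8, carcinoma cells (triangles), with 95% counting intervals. Ccl12 in C1q-negative cells ran from 56.0 to 1103 CPM, while Ccr2 in the same cells stayed between 479 and 559 CPM.

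Within the carcinoma, ligand levels depended on the cell state. Carcinoma cells were clustered without any chemokine or chemokine receptor gene, which gave 12 clusters, so the members played no part in forming them. The interferon-response cluster (cluster 5, led by Rsad2, Ifit3, Cmpk2 and Ifit3b) and a matrix-rich cluster (cluster 0, led by Slc7a2, Itm2a, Pdgfrl and Apod) had the highest Ccl2, at 3886 CPM (3845 to 3928) and 3873 CPM (3835 to 3910), with overlapping intervals. Without barcode set 3, cluster 11, at 3472 CPM over all sets, was above both, at 4135 CPM against 3901 and 3850 CPM. The epithelial cluster (cluster 6, led by Epcam, Cldn4, Krt7 and S100a14) had the lowest, at 250 CPM, 0.100-fold the other carcinoma cells. In the barcode sets with at least 20 cells, the interferon cluster held 4750 CPM in set 1, 2429 in set 2, 5336 in set 4, 3726 in set 5 and 3756 in set 6. The epithelial cluster held 215, 292, 190, 231 and 193 CPM in sets 2 to 6, and the ranges did not overlap. The interferon cluster led in the pool, where 360 of its 578 cells came from set 5, but not in every set. Cluster 0 was above the interferon cluster in sets 2, 5 and 6, at 3383, 4462 and 4850 CPM. Cluster 0 was below it in sets 1 and 4, at 2869 and 4130 CPM. In set 6, clusters 4 and 11 were also above the interferon cluster, at 6188 and 7755 CPM. Of the other clusters, 10 of 11 were above the epithelial one in every set that held at least 20 cells of both. The cluster led by Dmp1 and Abcg2, at 596 CPM, was above it in 2 of 3, and its level was 333 CPM without set 2 and 1041 CPM without set 4. A proliferating cluster led by Hist1h1b and Top2a was at 3121 CPM while another led by Rhox5 and Birc5 was at 714 CPM, and the hypoxic cluster led by Ero1l and Bnip3 was at 706 CPM.

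Ccl7 and Ccl8 did not follow Ccl2 in all clusters. Ccl7 was highest in cluster 11, led by Calca and Ogn, at 1131 CPM, 2.63-fold the other carcinoma cells, where 5.83% of genes were at least 2-fold higher. Cluster 0 was at 943 CPM, 2.46-fold the others, where 7.37% of genes were at least 2-fold higher. In sets 1, 2, 3, 4 and 6, which held at least 20 cells of it, cluster 11 was at 1195, 983, 332, 1174 and 2253 CPM, so that set 3 was low and set 6 high. Without set 6 cluster 11 was at 872 CPM and cluster 0 at 900.4 CPM, which turned their order. Ccl8 was at 287 CPM (277 to 298) in cluster 0, 9.44-fold the others, and no other cluster was above 83.8 CPM. In cluster 0, Ccl8 was 158, 246, 219, 710 and 403 CPM in sets 1, 2, 4, 5 and 6. Host fibroblasts, at 242 CPM over all sets, were below cluster 0 in 3 of these 5 sets, and without set 5 the values were 237 CPM in fibroblasts and 233 CPM in cluster 0. This cluster also had a high summed level of 8 matrix genes (15677 CPM), with cluster 7, led by Fibin and Lum, at 17134 CPM but with a Ccl8 level of 59.2 CPM. Ccl12 and Ccr2 were near 0 in all carcinoma clusters.

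**Figure D3:**
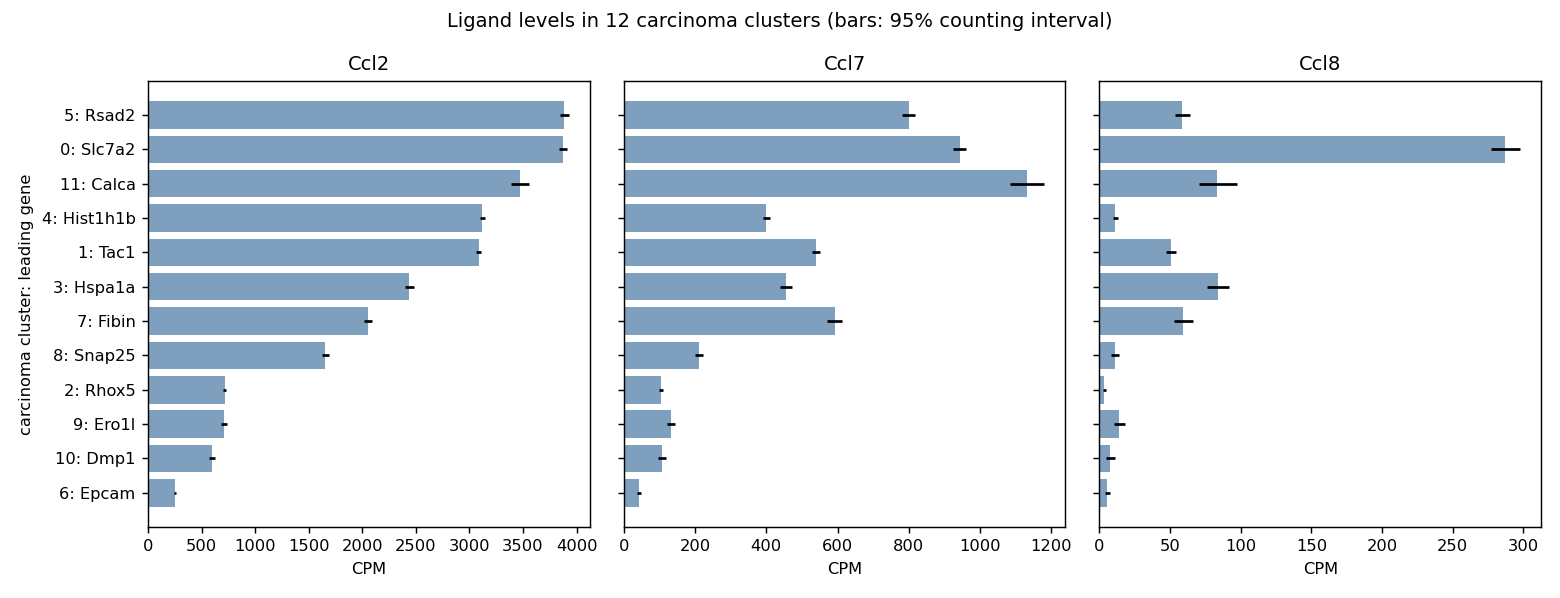
Level in CPM of Ccl2, Ccl7 and Ccl8 in 12 carcinoma clusters, ordered by Ccl2, each labelled by number and leading gene, with 95% counting intervals as black bars. Over all sets pooled, Ccl2 ran from 250 CPM in the epithelial cluster 6 to 3886 CPM in the interferon-response cluster 5. Ccl8 reached 287 CPM in cluster 0.

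Ccr2, the receptor, was found on monocytic and lymphoid cells and was close to 0 on the carcinoma and stroma. C1q-negative cells held 526 CPM (483 to 571), 41.4-fold the other classed cells, and the 82 cells with a single C1q UMI 437 CPM (345 to 546). NK cells were at 338 CPM (303 to 376) and C1q-positive cells at 245 CPM (228 to 264). C1q-positive cells were nevertheless higher in 3 of 5 sets. With classes from Leiden clusters, C1q-positive cells were at 261 CPM and the NK class at 228 CPM. That NK class held 835 cells, against 241 gated NK cells, and no Leiden cluster was named for T cells. Whether T cells lay in it was not tested, so these values cannot decide the order of NK and C1q-positive cells. T cells were at 133 CPM (111 to 159) and dendritic cells at 63.4 CPM (36.2 to 103). Carcinoma cells held 81 UMIs, or 0.817 CPM, and neutrophils, endothelial cells and pericytes or smooth muscle cells 0 UMIs. At 2000 UMIs per cell, shallower cells left out, Ccr2 was found in 55.6% of C1q-negative cells (49.0 to 62.1), 43.8% of NK cells (36.5 to 51.3), 32.1% of C1q-positive cells (28.5 to 35.9), 11.4% of T cells (7.12 to 17.1) and 0.228% of carcinoma cells (0.133 to 0.365). In barcode sets 1 to 6 C1q-negative cells held 479, 526, 493, 552, 529 and 559 CPM, and C1q-positive cells 166, 302, 413, 248, 226 and 355 CPM. C1q-negative cells were higher in 6 of 6 sets, and their highest set was 1.17 times their lowest, against 7.13 times for Ccl2 and 5.57 times for Ccl7 in the same cells. In NK cells the 5 sets with at least 20 cells ran from 250 to 425 CPM.

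At the rule of at least 2-fold over the other classed cells, 3 of the 5 members were higher in C1q-negative cells (Ccl7, Ccl12 and Ccr2), where 12.4% of 14044 genes were. In C1q-positive cells 3 of 5 (Ccl8, Ccl12 and Ccr2) were higher, where 12.8% of genes were, and in fibroblasts 2 of 5 (Ccl7 and Ccl8), against 10.6% of genes. In mast cells or basophils 1 of 5 (Ccl7) was higher, against 6.33% of genes. Ccr2 alone was higher in NK, T and dendritic cells, where 11.4%, 14.2% and 10.5% of genes were. The 82 cells with a single C1q UMI had 3 of 5 higher (Ccl7, Ccl12 and Ccr2), against 10.0% of genes. No member reached the rule in carcinoma cells, where 19.6% of genes did. The same held for neutrophils, B or plasma cells, osteoclast-like cells, pericytes or smooth muscle cells and endothelial cells, where 8.14%, 6.58%, 11.2%, 10.3% and 13.9% of genes reached it. Some of these calls turned on 1 barcode set. Without set 4, Ccl7 was 1.53-fold in C1q-negative cells and 1.77-fold in cells with a single C1q UMI, and Ccl2 was 2.36-fold in carcinoma cells. Ccl7 in C1q-positive cells, 1.90-fold in all, was 2.20-fold without set 1 and 2.16-fold without set 5. In neutrophils Ccl7, on 117 UMIs in 7 cells and 1.74-fold in all, was 2.08-fold without set 5 and 2.42-fold without set 6. Ccl8 in neutrophils, on 12 UMIs, was 2.03-fold without set 6.

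Ligand and receptor were set side by side on single myeloid cells thinned to 2000 UMIs. Among 232 C1q-negative cells, 38.8% (32.5 to 45.4) had both Ccr2 and a ligand UMI, 31.5% (25.5 to 37.9) a ligand without Ccr2, 16.8% (12.2 to 22.3) Ccr2 without a ligand, and 12.9% (8.90 to 17.9) neither. Among 632 C1q-positive cells the same shares were 20.9% (17.8 to 24.3), 43.0% (39.1 to 47.0), 11.2% (8.88 to 14.0) and 24.8% (21.5 to 28.4). In thinned T cells, used as a class low in these ligands, 11.4% had a Ccl2 UMI and 4% a Ccl7 UMI. In C1q-negative cells Ccl2 was seen in 65.1% of cells with Ccr2 (56.2 to 73.3) and in 65.0% of cells without it (55.0 to 74.2). In C1q-positive cells the shares were 52.7% (45.6 to 59.7) and 45.5% (40.7 to 50.3), with overlapping intervals.

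Ccl8 differed from the other ligands in this respect. Among C1q-positive cells, Ccr2 was seen in 11.1% of the 81 cells with Ccl8 (5.21 to 20.0) and in 35.2% of the 551 cells without it (31.2 to 39.4). For Ccl12 the corresponding shares of cells with Ccr2 were 37.2% (30.1 to 44.7) and 30.1% (25.9 to 34.5), and for Ccl7 35.2% (28.8 to 42.0) and 30.5% (26.2 to 35.2). Ccl2 was seen more often in cells that also had Ccl12. In C1q-negative cells Ccl2 was found in 92.6% of cells with Ccl12 (82.1 to 97.9) and in 56.7% of cells without it (49.1 to 64.1), and in C1q-positive cells in 72.8% (65.7 to 79.1) and 37.8% (33.3 to 42.5). The cells compared also came in different numbers from the 6 barcode sets, whose part in these shares was not tested.

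**Figure D4:**
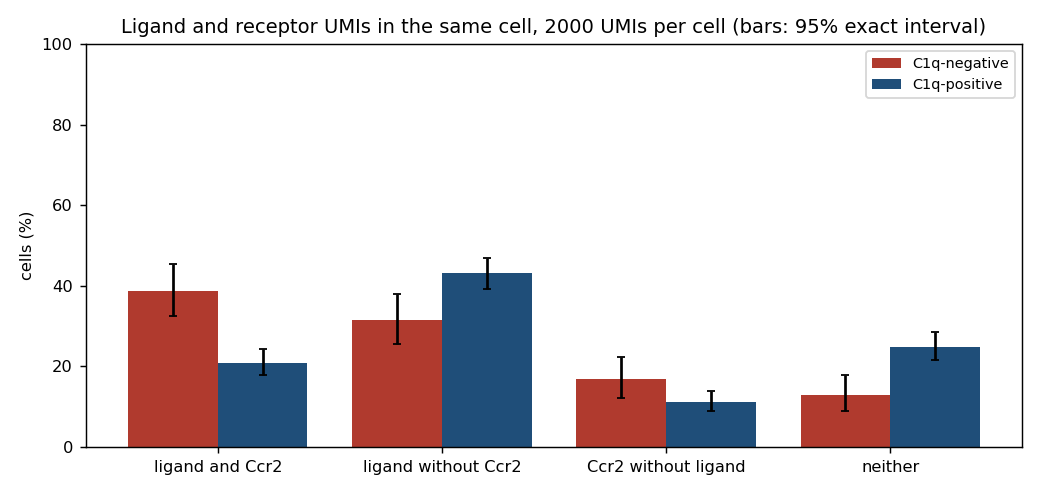
Percent of cells with a UMI of any of the 4 ligands and of Ccr2, after thinning to 2000 UMIs, in C1q-negative and C1q-positive cells, with 95% exact binomial intervals as bars. Both together were seen in 38.8% of C1q-negative and 20.9% of C1q-positive cells, and a ligand without Ccr2 in 31.5% and 43.0%.

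The genes with levels most like those of the members were sought across the 13 classes with at least 50 cells, by Pearson's r of log2(CPM + 5) over 11767 genes, as a description only because classes share the library. For Ccl2 the highest were Ccl7 (r = 0.946), the immediate-early gene Ier3 (0.904), Lrp12 (0.878), Zfp609 (0.860) and Tlcd2 (0.859). For Ccl7 it was Ccl2, for Ccl8 Tmem119 (0.925), and for Ccl12 Adgre1 (0.991), which is one of the gate markers. For Ccr2 they included Dok2, an adaptor of immune cell signalling (0.932), Bin2 (0.927), Calhm6 (0.923) and Vav1, an exchange factor of hematopoietic cells (0.918). Ccr2 and Ccl2 had an r of -0.066.

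Other genes of the axis were taken from a list of 40, of which 37 had at least 50 counts. Csf1r, a gate marker of the monocytes or macrophages, was then left out. In C1q-negative cells 21 of 36 were at least 2-fold higher and 7 at least 2-fold lower than in the other classed cells, where 12.4% and 29.0% of all genes were. In C1q-positive cells 18 were higher and 9 lower, against 12.8% and 26.7% of all genes, and in carcinoma cells 2 were higher and 23 lower, against 19.6% and 17.0%. The median fold was 2.74, 2.00 and 0.345 in the 3 classes, against 0.858, 0.798 and 1.14 over all genes tested. In C1q-negative cells the 3 with the largest folds were the cytokine gene Il1b (3090 CPM, 43.5-fold), the chemokine gene Ccl6 (1255 CPM, 40.9-fold) and the receptor gene Ccr1 (410 CPM, 34.4-fold). In C1q-positive cells they were Tnf (313 CPM, 43.7-fold), Ccl6 (846 CPM, 43.3-fold) and Cx3cr1, the fractalkine receptor (64.0 CPM, 41.2-fold). Carcinoma cells hold most UMIs of the other classed cells, so a large fold does not make a class the highest. Il1b and Ccr1 were highest in neutrophils, at 5372 and 959 CPM. Ccl6 and Tnf were higher in C1q-negative cells, at 1255 and 382 CPM, than in C1q-positive cells. Cx3cr1 was highest in C1q-positive cells. Ccl11, the eotaxin gene that lies between Ccl7 and Ccl12, was highest in fibroblasts.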

How the data were processed

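The deposited data were a single matrix of raw UMI counts in which all tumors are pooled. Per the submitters' processing notes and series text, Cell Ranger 7.1, Seurat 4.1.0 and build mm10 were used; the file headers give Cell Ranger 7.0.0. Whether cells were filtered before deposit is not given in the sources used here. The filter applied here asked for 500 or more detected genes and a mitochondrial share below 15%. A cell was gated to a host class when it had at least 3 of its markers (2 for dendritic and B or plasma cells), at least 5 marker UMIs per 10000 gene UMIs, and at most 1 Xist UMI. Carcinoma cells had at least 2 Xist UMIs, 0 Y-linked UMIs and no host gate. Markers seen in over 15% of Xist-rich, Y-negative cells, and Ly6c2, Plac8 and Ms4a4c in the monocyte gate, were left out. These thresholds and exclusions were set after the data had been seen. C1q-positive cells had at least 2 C1q UMIs. No doublet caller was run, and cells of several gates or of mixed Xist and host signal were set apart instead. Counts were summed over cells and divided by total gene UMIs (CPM), with exact Poisson intervals, and shares have exact Clopper-Pearson binomial intervals after random thinning to 2000 UMIs. Folds compare a class with all other classed cells for genes with at least 50 counts, with counts below 3 set to 3; a call needed 2-fold and at least 3 counts in the class, the last condition being added after values were seen. Carcinoma cells were clustered with Leiden (scanpy 1.11.5, leidenalg 0.10.2, resolution 1) on 3000 variable genes without chemokine or chemokine receptor genes. Python 3.11.15, numpy 2.4.6 and scipy 1.17.1 were used. The fold step was tested on simulated counts, and the thinning step by comparing drawn with expected counts in the C1q-positive cells. The members and lists were chosen with earlier results of these data known.

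Named genes were the members, the 5 genes most like Ccl2 and like Ccr2 (1 of these and 1 leading gene of a cluster are not reported here) and the 1 most like each other member, the 3 largest folds of a 40-gene list in each myeloid class, and up to 4 leading genes per carcinoma cluster; genes that characterise the myeloid classes, Isg15 and Ccl11 were named after their values were seen. Total gene UMIs per barcode set ran from 7354560 to 38798439. The planned edgeR test of treated against vehicle tumors, with its DESeq2 alternative, was not run because no source ties cells to tumors. Alternatives changed the cell filter, the gates, the treatment of cells with several gates, the weighting of barcode sets, the thinning, the clustering resolution and the CPM added, and left out each barcode set.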

Additional observations from a re-analysis of the deposited data

Results flagged for a closer look

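Of 21 combinations of a member and a class looked at over the barcode sets, 1 had a set far from the others, where chance alone flags about 1 in 20. It was Ccl2 in NK cells of barcode set 2, at 314 CPM, against 42.4 to 80.4 CPM in the other 4 sets with at least 20 NK cells. The set held 53 NK cells with 89 Ccl2 UMIs, of which 82 lay in 1 cell and 7 in the others.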

How the results depend on the processing

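No paired analysis was possible because no source ties cells to the numbered tumors. With 1 pooled matrix no result has a test, and a value was counted as unmoved when it stayed inside the counting interval of the reported value; of 280 alternative values 157 did so and 6 differed by over 1.5 times, 4 of these being Ccl2 in neutrophils. Its value was 638 CPM with the looser cell filter, 217 CPM with classes from Leiden clusters, 756 CPM as a mean over barcode sets and 583 CPM without set 2. The remaining pair came from carcinoma clusters at resolution 2, where Ccl2 was 6175 CPM in the cluster highest on the interferon list and 161 CPM in the one highest on the epithelial list; at resolution 0.5 these were 2720 and 235 CPM. Classes from Leiden clusters gave 2233 CPM for Ccl2 in carcinoma, 2662 CPM for Ccl2 in C1q-negative cells and 8190 CPM for Ccl7 in mast cells or basophils. Equal weighting of barcode sets gave 2289 and 2677 CPM for Ccl2 in carcinoma and C1q-negative cells, 7034 CPM for Ccl7 in mast cells or basophils (1 set with at least 20 cells), and 332 and 542 CPM for Ccl8 and Ccl12 in C1q-positive cells. The stricter cell filter gave 237 and 572 CPM for the last pair. One more marker per gate gave 3439 CPM and assigning cells of several gates 2850 CPM for Ccl2 in C1q-negative cells. Asking for 5 C1q UMIs, chosen after seeing the data, gave 293 CPM for Ccl8 and 550 CPM for Ccl12 in C1q-positive cells. Thinning to 1000 UMIs found Ccr2 in 39.5% of C1q-negative cells. The cause of these shifts was not tested. Leaving out each barcode set moved Ccl2 between 2190 and 2470 CPM in carcinoma and between 2415 and 3506 CPM in C1q-negative cells, Ccl7 in mast cells or basophils between 7373 and 10413 CPM, Ccl8 between 248 and 321 CPM and Ccl12 between 435 and 731 CPM in C1q-positive cells, Ccr2 in C1q-negative cells between 516 and 538 CPM, and Ccl2 between 3701 and 4178 CPM in the interferon and between 208 and 260 CPM in the epithelial cluster. With 1 CPM added, 3 or 4 of the 5 genes most like each member were shared.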
